A study of Homo sapiens with 8 samples.

Results

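The death receptor genes FAS, TNFRSF10A, TNFRSF10B, TNFRSF10C and TNFRSF10D, the adaptor gene FADD and the initiator caspase genes CASP8 and CASP9 are described here across 4 human cell lines. The members are all probes that the array files name for these genes, each kept apart, which gave 11 probes of 50599 on the array and 8 gene names of 36337. FAS had 3 probes, CASP8 had 2 and the other genes had 1 each. RNA came from FT293 cells, a Flp-In T-REx derivative of the human embryonic kidney line HEK293 in which tetracycline switches on a single integrated transgene. The 4 lines carried GFP alone, GFP-HuR, GFP-TIA1 or GFP-TIAR, where 1 label of the second TIA1 sample reads GFP-TIA2 and its others GFP-TIA1, as it was taken. All of them, the GFP controls included, were sampled on day 3 of tetracycline. Each line gave 2 one-colour arrays from independent cultures, and the 8 arrays shared 1 slide. The study compared cells expressing either TIA protein with those expressing HuR, another RNA-binding protein, or GFP, to ask which RNAs change before the cells begin to die.

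Death receptors are cell surface proteins of the tumour necrosis factor receptor family. When FAS binds FAS ligand, or when TNFRSF10A (DR4) or TNFRSF10B (DR5) binds TRAIL, a cytoplasmic death domain recruits FADD, which gathers and activates caspase 8, and caspase 8 in turn cleaves the executioner caspases. TNFRSF10C (DcR1) and TNFRSF10D (DcR2) bind TRAIL without passing on a full death signal and are known as decoy receptors, while caspase 9 starts the mitochondrial branch after APAF1 and cytochrome c assemble the apoptosome. TIA1 and TIAR bind uridine-rich RNA, and in other cells they are known to promote the inclusion of FAS exon 6, whose loss gives a soluble receptor.

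The arrays read total RNA of a gene at the place where its probe lies, which is why the sequences of 2 probes are shown first. The 3 FAS probes lay within 457 bases on chromosome 10 of hg19, the build of the array design, and all were listed for the same 4 RefSeq transcripts, so that FAS isoforms with and without exon 6 could not be told apart. The FAS probe farthest upstream, A_33_P3332112 (chr10:90774148-90774207, plus strand), ended in TAG, in capitals, and its reading frame held no other stop codon.
FAS A_33_P3332112: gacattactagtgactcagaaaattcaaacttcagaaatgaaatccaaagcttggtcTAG
Of all 50599 probes, 1.5% ended in these letters. The other 2 FAS probes, A_33_P3381127 (90774517 to 90774576) and A_23_P63896 (90774545 to 90774604), overlapped by 32 bases and therefore share part of their target. Of the CASP8 probes, A_24_P148499 (chr2:202136256-202136315, plus strand) held a pair of TTTT runs, in capitals, and is shown because a uridine-rich stretch is what TIA proteins are known to bind.
CASP8 A_24_P148499: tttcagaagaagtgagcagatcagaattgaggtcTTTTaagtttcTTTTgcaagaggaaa
TTTT was searched on the listed strand only, after the values were known, and 3 of the 11 member probes held it, as did 31.4% of all probes. A match in a probe describes letters and not a binding site. The second CASP8 probe, A_24_P157087 (202151838 to 202151897), lay 15522 bases downstream, and the first listed transcript differed between them (NM_033358 and NM_033355).

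Of the 11 probes, 9 were marked by the scanner software as well above background on all 8 arrays. TNFRSF10C passed on 3 arrays and TNFRSF10A on 1. Levels below are log2 processed signals relative to the array's 75th percentile, differences are log2 fold changes from limma with a Benjamini-Hochberg adjusted p over all tested probes, and calls need a 2-fold difference with an adjusted p below 0.05. GFP 1 stood apart from the other arrays: 86.0% of its probes were well above background against 53.2% to 58.5% on the other 7, and its local background was 88.7 against 37.2 to 43.2. The GFP pair correlated at 0.947 across probes against 0.993 to 0.997 in the other lines. The TIAL1 probe A_23_P161488, for the gene of TIAR, read 4.89 and 5.01 in TIAR-expressing cells and 1.65 to 2.53 on the other 6 arrays. Neither the ELAVL1 probe, for HuR, nor either TIA1 probe was highest in its own line, and which part of these RNAs the transgenes carry was not given in the sources used here.

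**Figure D1:**
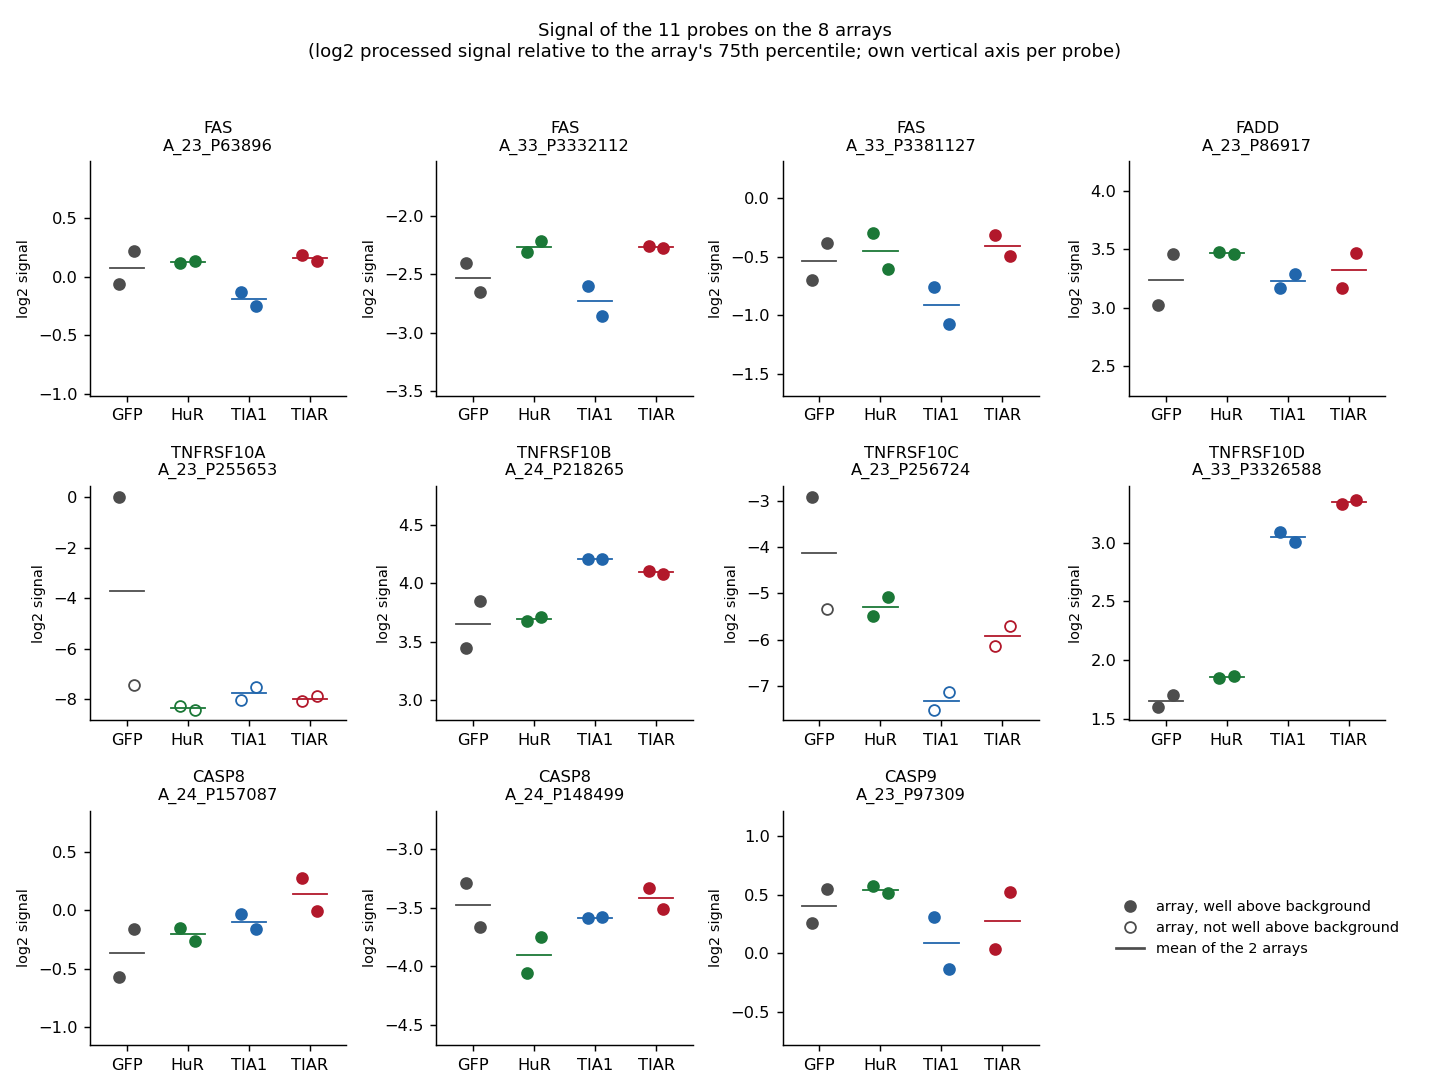
Log2 processed signal relative to the array's 75th percentile for each of the 11 probes, on the 2 arrays of each line, with filled points for arrays well above background, open points for the others and bars for line means. TNFRSF10D lay between 1.60 and 1.86 on the GFP and HuR arrays and between 3.01 and 3.37 on the TIA1 and TIAR arrays, while every FAS probe had its lowest mean in TIA1-expressing cells on this scale, an order that turned between TIA1 and GFP for A_33_P3332112 under other scalings (0.57 after quantile normalization).

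Against HuR, the RNA of the decoy receptor TNFRSF10D rose in both TIA lines, and no probe of FAS, FADD or the caspases was called. The dim decoy TNFRSF10C was called lower in TIA1-expressing cells, but it entered the test through the HuR arrays alone. Its direction turned after normexp. In TIA1- versus HuR-expressing cells, 2 of the 10 tested members were called, 1 higher and 1 lower, where 13.4% of all 28739 tested probes were called, 8.59% higher and 4.84% lower. In TIAR- versus HuR-expressing cells, 1 of 10 was called, higher, against 10.1% of 29096 probes, 7.15% higher and 2.93% lower. These shares of members lie near those of all probes. Their median difference was -0.28 for TIA1 and 0.04 for TIAR, beside 0.09 and 0.06 over all tested probes. Both comparisons use the same HuR arrays.

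TNFRSF10D (A_33_P3326588, chromosome 8, 22993127 to 22993186, minus strand) read 1.60 and 1.70 in GFP-, 1.84 and 1.86 in HuR-, 3.09 and 3.01 in TIA1-, and 3.33 and 3.37 in TIAR-expressing cells. All 4 TIA1 and TIAR arrays lay above all 4 GFP and HuR arrays, with no overlap between any of the lines. For this probe and those below, the share of all probes that separate in the same way was not counted. TNFRSF10D rose 2.30-fold in TIA1- versus HuR-expressing cells, which is 1.20 on the log2 scale (95% confidence interval 0.95 to 1.45, standard error 0.09, adjusted p = 0.0033 from limma). It rose 2.82-fold in TIAR- versus HuR-expressing cells, at 1.50 (1.25 to 1.75, standard error 0.09, adjusted p = 0.0044 from limma). Of all tested probes, 6.21% had a higher value in the TIA1 and 3.40% in the TIAR comparison. In RNA from whole cultures, more RNA per cell and more cells with the RNA cannot be told apart.

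Against GFP, the same probe differed by 1.40 in TIA1-expressing cells (0.87 to 1.93, adjusted p = 0.10 from limma) and by 1.70 in TIAR-expressing cells (1.16 to 2.23, adjusted p = 0.16 from limma). These differences were not smaller than those against HuR but were not called, in comparisons in which 0% of all probes were. With all 8 arrays in one fit they were called (adjusted p = 0.0034 and 0.0035 from limma), a setting that called 9.1% of all probes in TIA1 versus GFP. They were 1.35 and 1.65 without GFP 1 and 1.45 and 1.75 without GFP 2, each of which left GFP with 1 array. In turn, the call for TIAR versus HuR was lost without HuR 1 (1.49) and without HuR 2 (1.51), each of which left HuR with 1 array. The share of all probes called fell there as well. TIAR exceeded TIA1 by 0.30 (0.00 to 0.59, adjusted p = 0.21 from limma), and HuR exceeded GFP by 0.20 (-0.26 to 0.66, adjusted p = 0.53 from limma), so that neither of these neighbouring pairs in the order of the lines passed the test.

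**Figure D2:**
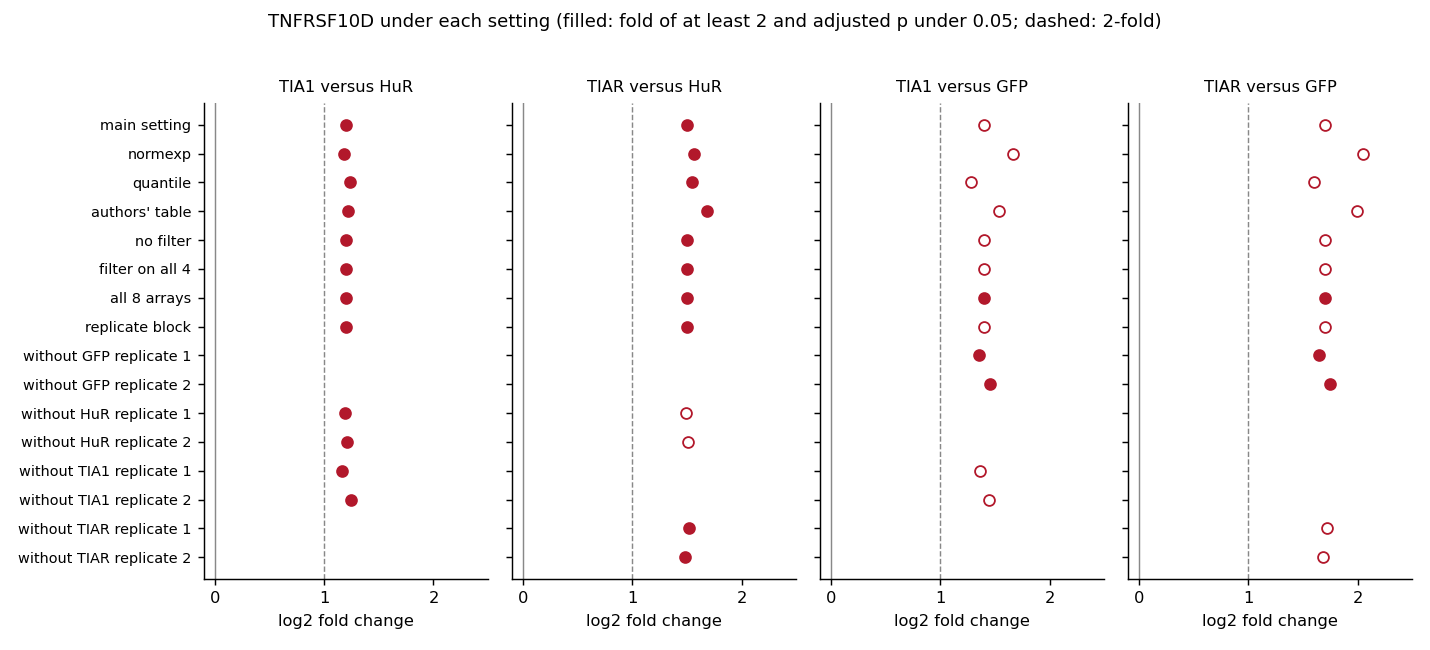
Log2 fold change of TNFRSF10D in 4 comparisons under each setting and with each array left out, with filled points where the fold was at least 2 and the adjusted p under 0.05. The values stay above 1 throughout, from 1.16 for TIA1 versus HuR without TIA1 replicate 1 to 2.05 for TIAR versus GFP after normexp, while the calls differ between settings.

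TNFRSF10B (A_24_P218265, chromosome 8, 22877776 to 22877835, minus strand), the TRAIL receptor that carries a working death domain, read 3.45 and 3.85 in GFP-, 3.68 and 3.71 in HuR-, 4.20 and 4.21 in TIA1-, and 4.11 and 4.08 in TIAR-expressing cells. The arrays of either TIA line lay above all GFP and HuR arrays. TIA1-expressing cells were 1.43-fold above HuR, at 0.51 (0.27 to 0.75, adjusted p = 0.016 from limma), and TIAR-expressing cells 1.32-fold, at 0.40 (0.15 to 0.65, adjusted p = 0.040 from limma). Both pass the adjusted p but not the 2-fold threshold, and an adjusted p under 0.05 at any fold was reached by 41.4% and 30.6% of all probes. The adjusted p from limma was 0.083 and 0.18 with all 8 arrays in one fit and 0.086 and 0.15 with no filter on dim probes, and for TIAR 0.10 with a replicate block. Against GFP the differences were 0.56 (-0.09 to 1.20, adjusted p = 0.28) for TIA1 and 0.44 (-0.21 to 1.10, adjusted p = 0.42 from limma) for TIAR, and TIAR differed from TIA1 by -0.11 (-0.40 to 0.17, adjusted p = 0.57 from limma).

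TNFRSF10C (A_23_P256724, chromosome 8, 22974483 to 22974542, plus strand), the other decoy receptor, was dim. It read -2.91 and -5.35 in GFP-, -5.49 and -5.09 in HuR-, -7.52 and -7.13 in TIA1-, and -6.14 and -5.71 in TIAR-expressing cells, and only GFP 1 and the HuR arrays were well above background. A line without such an array has only a bound, for which its arrays take the dimmest signal still marked well above background there, unless the probe itself was brighter. By that bound TNFRSF10C was at least 1.13-fold lower in TIA1- than in HuR-expressing cells (means -7.32 and -5.29, adjusted p = 0.0051 from limma) and at least 1.34-fold lower in TIAR-expressing cells (mean -5.92, adjusted p = 0.098 from limma). The call for TIA1 ended in the authors' table (adjusted p = 0.099) and with all 8 arrays in one fit (adjusted p = 0.12), and after normexp the direction turned to 0.07 higher in TIA1-expressing cells on the log2 scale (adjusted p = 0.66 from limma). HuR was -1.16 below GFP (-3.80 to 1.48, adjusted p = 0.53 from limma), a difference called only without GFP 2 (-2.38, adjusted p = 0.0051 from limma), the GFP array on which the probe was not well above background, and turned to 0.10 after quantile normalization. TNFRSF10C was not tested in the other comparisons.

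TNFRSF10A (A_23_P255653, chromosome 8, 23049253 to 23049312, minus strand), the second TRAIL receptor with a death domain, was well above background on GFP 1 alone. Its processed signal there was 1646 intensity units, against 7.56 on GFP 2 and 4.89 to 6.58 on the HuR, TIA1 and TIAR arrays. The array that carries it is the one that stood apart, and the part of that array's background in the value was not tested. The probe was tested in none of the 6 comparisons, and at this signal no difference between the lines was detectable. The TNFRSF10 genes are close relatives of each other, and whether a probe also captures the RNA of another was not tested.

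**Figure D3:**
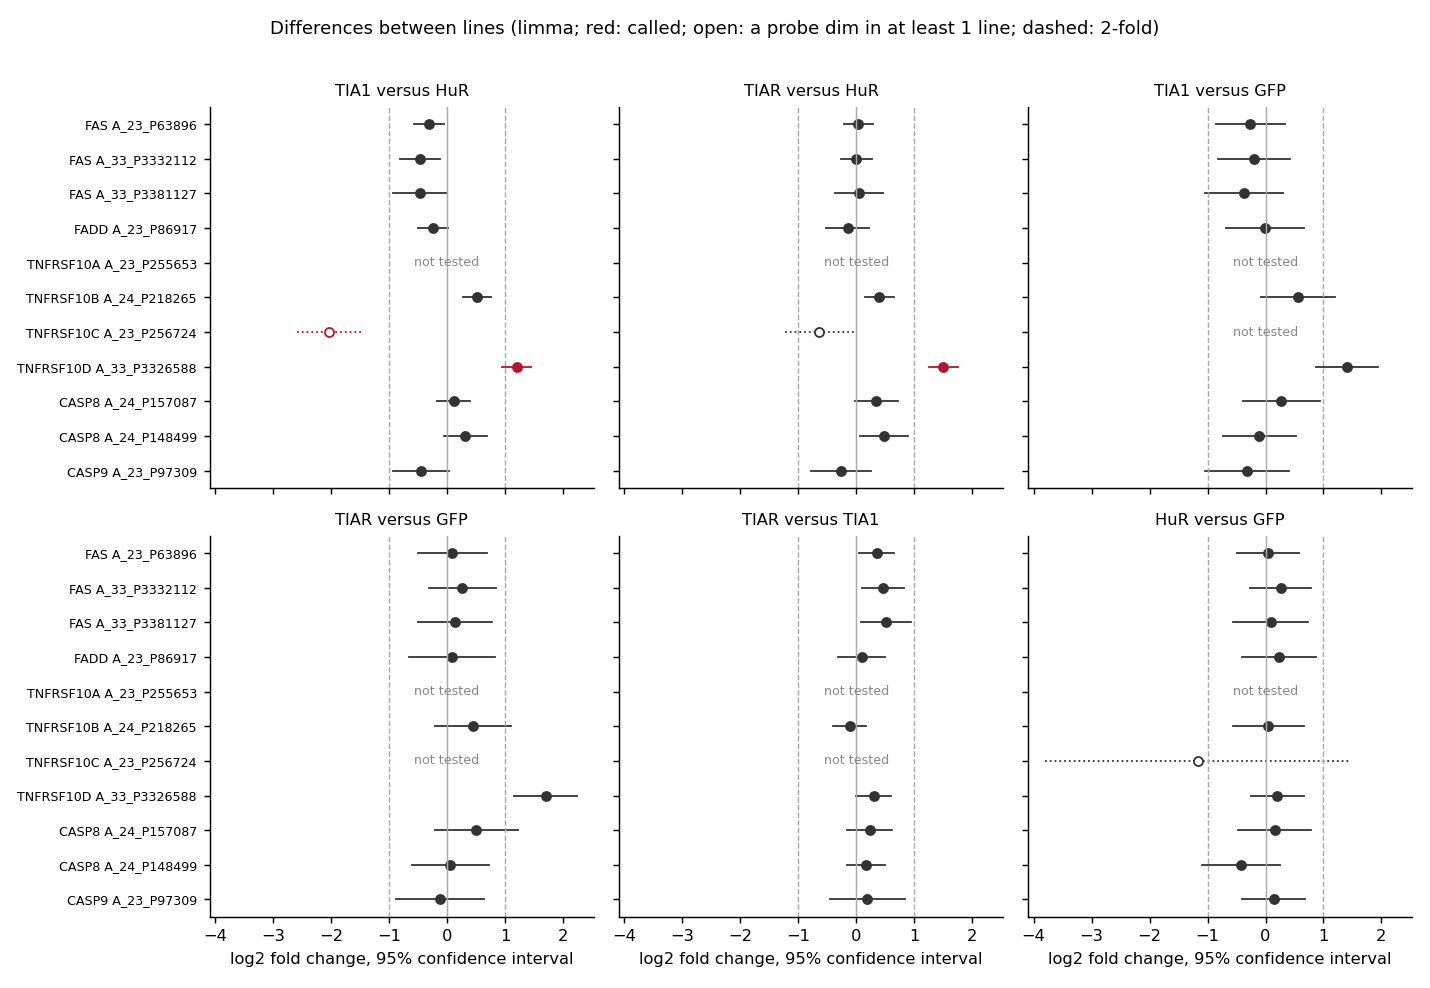
Log2 fold changes with 95% confidence intervals from limma for the tested probes in 6 comparisons, with called probes in red, TNFRSF10C open and dotted because it was dim in at least 1 line, and 2-fold marked by dashed lines. Called probes are TNFRSF10D against HuR in both TIA lines (1.20 and 1.50) and TNFRSF10C for TIA1 versus HuR, whose fitted value is no measure of its size.

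FAS, the receptor of FAS ligand, was lower in TIA1- than in HuR- and TIAR-expressing cells by the mean of each of its 3 probes, by less than 2-fold. The probe A_23_P63896, printed as 10 spots on each array, read -0.06 and 0.22 in GFP-, 0.12 and 0.14 in HuR-, -0.13 and -0.25 in TIA1-, and 0.19 and 0.14 in TIAR-expressing cells. Both TIA1 arrays lay below the other 6, which overlapped among themselves. The difference from HuR was -0.31 in TIA1-expressing cells (-0.58 to -0.05, adjusted p = 0.065 from limma) and 0.04 in TIAR-expressing cells (-0.22 to 0.29, adjusted p = 0.79 from limma).

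The repeated spots give the error within an array. For this probe the SD over the spots of an array was 0.07 to 0.15, and the median spot was 0.08 in GFP-, 0.14 in HuR-, -0.19 in TIA1- and 0.13 in TIAR-expressing cells. The 20 TIA1 spots ran from -0.43 to 0.11 and the 20 TIAR spots from 0.02 to 0.56, so that single spots of these lines overlapped. On GFP 2, 1 spot was marked as an outlier and left out. Spots of an array are no replicates of the line and entered the test as 1 mean per array.

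**Figure D4:**
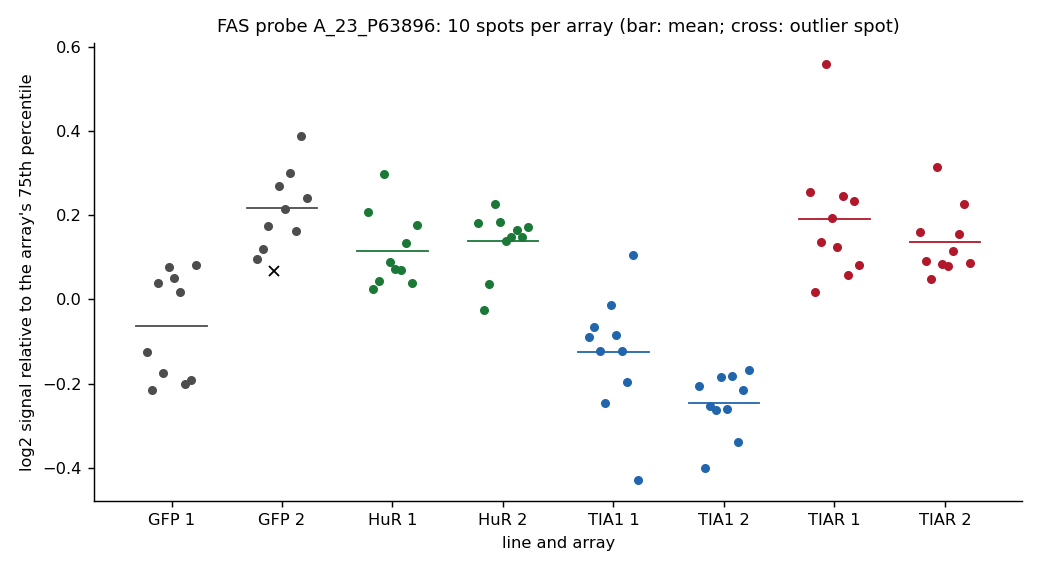
Log2 signal relative to the array's 75th percentile of the 10 spots of FAS probe A_23_P63896 on each of the 8 arrays, with a bar for the array's mean and a cross for the outlier spot on GFP 2. The means of TIA1 1 and TIA1 2, -0.13 and -0.25, lie below those of the other arrays, whose lowest is -0.06 on GFP 1.

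The upstream FAS probe A_33_P3332112, which ends in the TAG shown above, read -2.40 and -2.66 in GFP-, -2.31 and -2.22 in HuR-, -2.60 and -2.86 in TIA1-, and -2.25 and -2.28 in TIAR-expressing cells. TIA1 lay below HuR and TIAR on both arrays and overlapped with GFP. It was -0.46 from HuR in TIA1-expressing cells (-0.81 to -0.12, adjusted p = 0.048 from limma), which passes the adjusted p but not the 2-fold threshold, and -0.00 in TIAR-expressing cells (-0.27 to 0.26, adjusted p = 0.99 from limma). For TIA1 the adjusted p from limma was 0.16 after normexp (-0.23), 0.057 in the authors' table, 0.096 with all 8 arrays in one fit, 0.14 with no filter on dim probes and 0.076 with a replicate block.

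The third FAS probe, A_33_P3381127, read -0.70 and -0.38 in GFP-, -0.30 and -0.61 in HuR-, -0.76 and -1.07 in TIA1-, and -0.32 and -0.50 in TIAR-expressing cells. TIA1 was below the other lines on both arrays, at -0.46 from HuR (-0.93 to 0.00, adjusted p = 0.097 from limma), which was -0.08 after normexp and -0.17 in the authors' table, and TIAR was at 0.05 (-0.37 to 0.46, adjusted p = 0.83 from limma). Since this probe overlaps with A_23_P63896, they are not independent readings.

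TIAR exceeded TIA1 by 0.35, 0.46 and 0.51 in the probes A_23_P63896, A_33_P3332112 and A_33_P3381127. The unadjusted p was 0.034, 0.023 and 0.028, and the adjusted p 0.17, 0.14 and 0.16 from limma, so that the difference between the TIA lines did not pass. Against GFP, FAS differed by -0.38 to -0.20 in TIA1- and by 0.09 to 0.26 in TIAR-expressing cells, with adjusted p between 0.43 and 0.85 from limma, and HuR differed from GFP by 0.05 to 0.26. These directions depend on the scaling: A_33_P3332112 in TIA1-expressing cells was 0.57 above GFP after quantile normalization, 0.47 in the authors' table and 0.02 after normexp, and in TIAR-expressing cells A_33_P3381127 was -0.16 from GFP after normexp. Over the 3 probes and 6 comparisons, 17 of 18 confidence intervals lay within 2-fold.

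FADD (A_23_P86917, NM_003824, chromosome 11, 70053305 to 70053364, plus strand), the adaptor that links FAS and the TRAIL receptors to caspase 8, read 3.02 and 3.46 in GFP-, 3.48 and 3.46 in HuR-, 3.17 and 3.29 in TIA1-, and 3.17 and 3.47 in TIAR-expressing cells. The HuR arrays lay narrowly above those of GFP and TIA1, an order that turned for GFP in the authors' table (-0.225) and after normexp (-0.04), and all other pairs of lines overlapped. The difference from HuR was -0.24 in TIA1-expressing cells (-0.51 to 0.02, adjusted p = 0.12 from limma) and -0.15 in TIAR-expressing cells (-0.52 to 0.22, adjusted p = 0.45 from limma).

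CASP8, the initiator caspase of the receptor pathway, had its highest mean in TIAR-expressing cells in both probes. The probe A_24_P157087 read -0.57 and -0.16 in GFP-, -0.15 and -0.26 in HuR-, -0.03 and -0.16 in TIA1-, and 0.27 and -0.00 in TIAR-expressing cells. The TIAR arrays lay above the other 6, while the GFP, HuR and TIA1 arrays overlapped. TIAR differed from HuR by 0.34 (-0.03 to 0.71, adjusted p = 0.13 from limma), from GFP by 0.50 (-0.22 to 1.22, adjusted p = 0.41 from limma) and from TIA1 by 0.23 (-0.16 to 0.62, adjusted p = 0.41 from limma).

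The upstream CASP8 probe with the TTTT runs, A_24_P148499, read -3.29 and -3.67 in GFP-, -4.06 and -3.75 in HuR-, -3.59 and -3.58 in TIA1-, and -3.33 and -3.51 in TIAR-expressing cells. On this scale HuR was the lowest line and did not overlap with the others, but its difference from GFP, -0.42, turned to 0.96 after quantile normalization and to 0.52 in the authors' table, where TIA1 lay 0.08 and 0.055 above HuR. TIAR differed from HuR by 0.48 (0.06 to 0.90, adjusted p = 0.083 from limma) and TIA1 from HuR by 0.32 (-0.06 to 0.69, adjusted p = 0.13 from limma). TIAR differed from GFP by 0.06 (-0.61 to 0.72, adjusted p = 0.92 from limma).

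CASP9 (A_23_P97309, NM_001229, chromosome 1, 15818979 to 15819038, minus strand), the initiator of the mitochondrial branch, read 0.26 and 0.55 in GFP-, 0.57 and 0.52 in HuR-, 0.31 and -0.13 in TIA1-, and 0.04 and 0.52 in TIAR-expressing cells. The arrays of a line lay 0.45 apart for TIA1 and 0.49 for TIAR, and TIA1 and HuR were the only lines without overlap. The difference from HuR was -0.45 in TIA1-expressing cells (-0.93 to 0.02, adjusted p = 0.11 from limma) and -0.27 in TIAR-expressing cells (-0.78 to 0.25, adjusted p = 0.34 from limma).

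In the other comparisons no member was called. Limma called 0 of 9 in TIA1 versus GFP and 0 of 9 in TIAR versus GFP, with 1 each at an unadjusted p under 0.05 (TNFRSF10D), and the paired t-test of the study's methods likewise gave 1 each before and 0 after Benjamini-Hochberg adjustment. In HuR versus GFP limma called 0 of 10 members and 0% of all probes, with 0 members at an unadjusted p under 0.05. In TIAR versus TIA1 limma called 0 of 9 members and 2.35% of all 28059 probes. There 4 members had an unadjusted p under 0.05, the 3 FAS probes, of which 2 overlap, and TNFRSF10D. The share of all probes at an unadjusted p under 0.05 from limma was not counted. The share of all probes with a fold of at least 2 alone was 16.9%, 14.8% and 15% in the comparisons of TIA1, TIAR and HuR with GFP, and 14.3%, 11.2% and 4.37% in TIA1 versus HuR, TIAR versus HuR and TIAR versus TIA1.

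**Figure D5:**
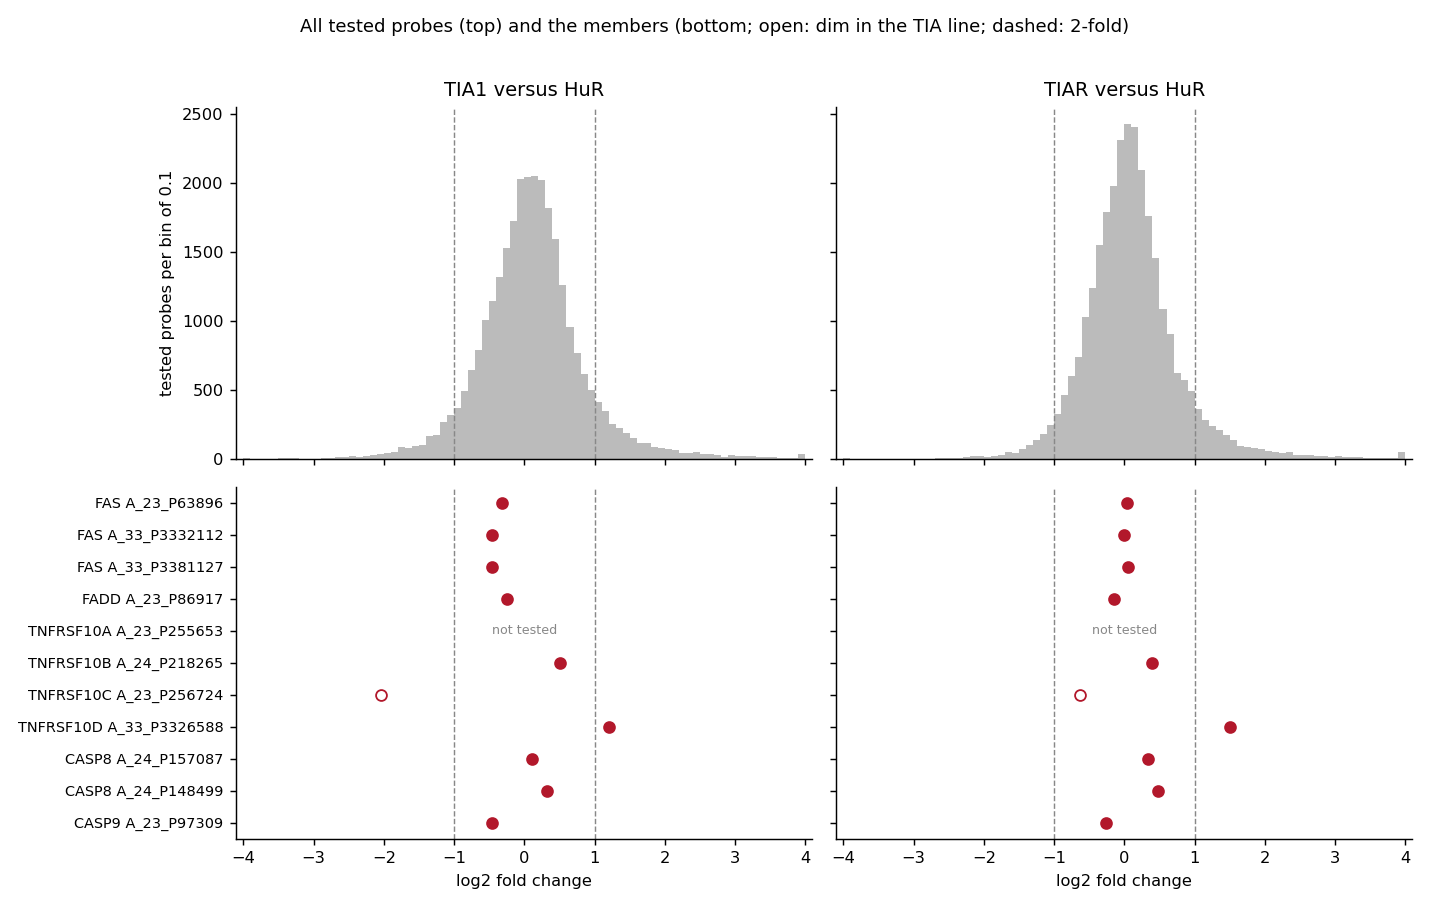
Number of tested probes per bin of 0.1 in log2 fold change (top, values past 4 in the end bins) and the members' log2 fold changes (bottom), for TIA1 versus HuR and TIAR versus HuR, with 2-fold marked by dashed lines and TNFRSF10C open because it was dim in the TIA line. Apart from TNFRSF10D (1.20 and 1.50) and the dim TNFRSF10C, the members lie between -0.46 and 0.51, within the bulk of the tested probes.

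Other genes of the pathway were taken from lists of ligands, receptors, adaptors, caspases, inhibitors and substrates, 51 genes in all. In TIA1- versus HuR-expressing cells 6 of 38 tested genes were called higher and 0 lower. Of their 60 probes 8 were called, 13.3% higher and 0% lower, against 8.59% and 4.84% of all tested probes, with a median difference of 0.35. In TIAR- versus HuR-expressing cells 5 of 38 were called higher and 0 lower, through 6 of 60 probes, or 10% higher and 0% lower against 7.15% and 2.93% of all tested probes, with a median of 0.16. Against GFP limma called 0 genes in either direction, in comparisons in which 0% of all tested probes were called. Among the TNF receptor family, TNFRSF25 (DR3), a death receptor of another ligand, read 0.55 and 0.49 in HuR-, 1.73 and 1.90 in TIA1-, and 1.46 and 1.50 in TIAR-expressing cells in its probe A_23_P126844. It rose by 1.30 in TIA1- versus HuR-expressing cells (standard error 0.11, adjusted p = 0.0037 from limma) and was 0.96 above HuR in TIAR-expressing cells, just under 2-fold, where its dimmer probe A_33_P3234530 was called (2.05, adjusted p = 0.024 from limma). That dimmer probe entered the test through the TIAR arrays alone. NGFR, the neurotrophin receptor with a death domain, rose by 1.03 in TIA1- versus HuR-expressing cells (adjusted p = 0.0044 from limma), with -0.80 on GFP 1 and -4.39 to -3.31 on the other arrays. TNFRSF21 (DR6) and the soluble decoy TNFRSF6B differed by -0.19 and 0.63 in TIA1- and by 0.13 and 0.61 in TIAR- versus HuR-expressing cells, and neither was called.

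Of the adaptors, PIDD, a death domain protein that activates caspase 2, read 2.73 and 3.20 in GFP-, 2.69 and 2.51 in HuR-, 4.48 and 4.72 in TIA1-, and 4.05 and 4.23 in TIAR-expressing cells. All TIA1 and TIAR arrays lay above the others, and PIDD rose by 2.00 in TIA1- (adjusted p = 0.0028) and by 1.54 in TIAR- versus HuR-expressing cells (adjusted p = 0.0059 from limma). FAF1, which binds FAS, differed from HuR by 0.83 and 0.77 and from GFP by 0.22 and 0.17, and was not called. FAIM2, an inhibitor of FAS signalling, was called lower in TIAR- than in TIA1-expressing cells, at least 1.53-fold (adjusted p = 0.028 from limma). It was dim and entered that test through the TIA1 arrays alone.

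CASP10, the close relative of CASP8 that FADD also recruits, read -1.84 and -1.89 in HuR-, -0.53 and -0.64 in TIA1-, and -0.57 and -0.48 in TIAR-expressing cells in its probe A_33_P3504659. It rose by 1.28 in TIA1- (adjusted p = 0.0032) and by 1.33 in TIAR- versus HuR-expressing cells (adjusted p = 0.0053 from limma). The GFP arrays read 0.02 and -1.16 in this probe, and the brighter probe A_33_P3383283 differed from HuR by 0.64 and 0.31 and was not called. A dimmer probe, A_24_P3045, was called for TIA1 (1.05, adjusted p = 0.040 from limma) and differed from HuR by 0.18 in TIAR-expressing cells, so that the probes of CASP10 disagree on the size. CASP4, an inflammatory caspase, was well above background on GFP 1 and the TIAR arrays only. It therefore entered its tests against HuR and TIA1 through the TIAR arrays alone. There it exceeded HuR by at least 3.83-fold (adjusted p = 0.0078 from limma) and TIA1 by at least 3.09-fold (adjusted p = 0.014 from limma).

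APAF1, the scaffold of the apoptosome that activates caspase 9, rose by 1.02 in TIA1- versus HuR-expressing cells (adjusted p = 0.0047 from limma) and was 0.90 above HuR in TIAR-expressing cells, which is under 2-fold. From GFP it differed by 0.55 in TIA1-, 0.43 in TIAR- and -0.47 in HuR-expressing cells, and it was not called there. CASP6, an executioner caspase, differed from HuR by 0.61 in TIA1- and by 0.57 in TIAR-expressing cells and was not called. Among the inhibitors, BIRC5 (survivin) differed from HuR by 0.53 and 0.29. Of the 8 tested genes of that list, with 12 probes, 0 were called in any comparison by limma. Of all tested probes, 13.4% were called in TIA1 and 10.1% in TIAR versus HuR, 2.35% in TIAR versus TIA1 and 0% against GFP. Of the caspase substrates, LMNA (lamin A/C) rose by 1.05 in TIA1- and by 1.23 in TIAR- versus HuR-expressing cells in its probe A_33_P3311285 (adjusted p = 0.0051 and 0.0060 from limma). Its brightest probe, A_23_P34835, differed by 0.54 and 0.99 and was called in neither. Its probe A_33_P3408762 differed by 0.60, not called, and by 1.06, called (adjusted p = 0.0079 from limma). The brightest PARP1 probe differed by 0.23 and 0.06. Of the ligands, the TRAIL gene TNFSF10 had no probe well above background on more than 1 array and was not tested.

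The RNAs whose pattern over the 8 arrays was most like that of TNFRSF10D, among 24954 probes well above background on all arrays, were AK127417 (Pearson r of log2 signal 0.998), LOC100507501 (0.996) and CHIC2 (0.993). For TNFRSF10B they were PPP2R2D (0.993), NDE1 (0.993) and TSGA10 (0.992), and for CASP8 PRPSAP1 (0.990), TSTD2 (0.984) and FAM63A (0.981). These members had the widest range of line means, 1.70, 0.56 and 0.50, when each gene is taken by its brightest probe among those well above background on all 8 arrays, and the points share slide and array, so that the values only describe likeness. The TNFRSF10 genes lie next to each other, and of the other 12 probes within 250 kb of them, a window chosen after the values were known, 8 were tested. Among these LOC286059 (chromosome 8, 22941020 to 22941079, plus strand), between TNFRSF10B and TNFRSF10C, was called against HuR, by at least 9.47-fold for TIA1 and by at least 6.78-fold for TIAR (adjusted p = 0.0023 and 0.0045 from limma), and 0 were called lower. LOC286059 read -3.07 and -3.74 on the GFP arrays, -5.93 and -6.38 on the HuR arrays, and -3.30 to -2.68 on the TIA1 and TIAR arrays. It was not well above background on either HuR array, so that it entered these tests through the TIA1 or TIAR arrays alone.

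The labelled cell type was checked against its markers. NEFL and 1 PAX2 probe, markers of this line, were well above background on all 8 arrays. In summed linear signal, relative to the 75th percentile, the 9 probes of blood markers came to 0.09 to 0.16 on 7 arrays and to 2.75 on GFP 1, where 7 of them were well above background against 1 to 4 elsewhere. The 4 muscle probes summed to 1.09 to 1.26 in the TIA lines, 0.67 and 0.69 in HuR- and 0.37 and 0.40 in GFP-expressing cells, with ACTA1 at 0.04 to 0.24 on the log2 scale in the TIA lines and -0.66 and -0.58 in HuR-expressing cells, and the 3 liver probes to 0.13 to 0.16 in the TIA lines, 0.05 in HuR-expressing cells, 0.15 on GFP 1 and 0.05 on GFP 2. Of the liver markers ALB was called higher than in HuR-expressing cells in both TIA lines (2.82 and 2.62, adjusted p = 0.0031 and 0.0055 from limma), and APOA2 was called lower for TIA1, at least 1.22-fold (adjusted p = 0.020 from limma). ALB entered these tests through the arrays of the TIA lines alone, and APOA2 through the HuR arrays alone. Both sums were higher in the TIA lines than in HuR-expressing cells, as TNFRSF10D was, and their part in its difference was not tested.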

How the data were processed

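RNA of 4 FT293 lines was hybridized to 8 one-colour Agilent arrays. The authors deposited the scanner software's processed signal per spot, an intensity corrected for background and for trends within an array. The authors also deposited a table of log2 values, quantile-normalized. Its medians were 7.36 on both TIAR arrays, 7.41 on GFP 1 and 7.5 to 7.51 on the other arrays. Whether the TIAR arrays were treated apart was not tested. The submitters' processing notes name limma, without a version. Here processed signals were put on the log2 scale, each array's 75th percentile was subtracted, outlier spots were dropped and a probe's spots averaged. A probe was tested if at least 1 of the compared lines had it well above background on both its arrays. Limma 3.58.1 (lmFit and eBayes in R 4.3.3) was fitted to the 4 arrays of each comparison and checked on simulated data. Having 2 arrays per line limits the precision.

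The members, pathway lists and markers were chosen with earlier results of these data known. Named are all member probes, every pathway gene with a called probe, up to 3 uncalled genes per list with the highest signal, and the 3 most alike genes for the 3 members whose brightest probe has the widest range. Of the genes so named, some are not given here. Of the pathway symbols, 50 of 51 matched RefSeq symbols (GRCh38.p14), and all 8 members did. Probe positions are the design's (hg19), and exons were not assigned. Alternatives were normexp with an offset of 50, quantile normalization, the authors' table, leaving dim probes in, requiring signal on all 4 arrays, fitting all 8 arrays together, a replicate block, leaving out each array, and the methods' paired t-test.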

Additional observations from a re-analysis of the deposited data

How the results depend on the processing

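Of the 6 counts of called members, those for TIAR versus TIA1 stayed at 0 under every alternative. In TIA1 versus HuR the count of 2 was 1 after normexp, in the authors' table, with the filter on all 4 arrays and with all 8 arrays in one fit, each time through the loss of TNFRSF10C, and 0 by the methods' t-test after Benjamini-Hochberg adjustment. The fitted log2 difference of TNFRSF10C, -2.03, reversed to 0.0721 after normexp. In TIAR versus HuR the count of 1 was 0 by the adjusted t-test and 0 to 1 with an array left out, where HuR replicate 1 or HuR replicate 2 ended it. In TIA1 versus GFP and in TIAR versus GFP the count of 0 was 1 with all 8 arrays and by the unadjusted t-test, and 0 to 1 with an array left out, where removing either GFP array gave 1. In HuR versus GFP it was 0 to 1, with 1 without GFP replicate 2. Of the 57 log2 differences of members, others that turned sign were 9 after normexp, 6 after quantile normalization, 10 in the authors' table and 17 with some array left out, none of them called. Leaving out an array leaves its line with 1, assumed to vary like the other line, and the share of all probes called moved as well. In TIA1 versus GFP that share rose without either GFP array, and in TIAR versus HuR it fell without either HuR array. These gains and losses of calls are therefore not particular to the members. Quantile normalization and no filter moved none of the 6 counts. In TIA1 versus HuR the share of all probes went from 13.4% to 7.67% after normexp and 5.91% in the authors' table. It was 11.4% with the filter on all 4 arrays and 9.35% with all 8 arrays. In TIA1 versus GFP it was 9.1% with all 8 arrays and 2.55% by the unadjusted t-test. The adjusted t-test called 0% of all probes in TIA1 and in TIAR versus HuR. The replicate numbers do not pair the samples (correlation of deviations -0.07 to 0.15 over the comparisons), and with them as a block the counts were 2, 1, 0, 0, 0 and 0, as without. The cause of these changes was not tested.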
